A study of Mus musculus with 12 samples.

Results

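The mitosis and G2/M genes are a list of 32 gene symbols, of the 37583 genes in the count tables. All 32 were found, and all 32 passed the filter on low counts that left 16240 genes for testing. The rule that names them uses no measured value, but the list was chosen with earlier results of these data known. The libraries came from cultured mouse cells of strain 129SV/Jae/C57BL6J, in 6 groups of 2 replicates. Embryonic fibroblasts (MEF), grown in MEF medium, were the start. Reprogramming cells, grown in ES medium with dox and AA, were sorted on day 3 as SSEA1+CD73-Sca1+ (d3_Ineff) or SSEA1+CD73+Sca1- (d3_Eff), and on day 6 as SSEA1+EpCAM-Sca1+ (d6_Ineff) or SSEA1+EpCAM+Sca1- (d6_Eff). Induced pluripotent stem cells (iPSC), grown in ES medium, were the end. Cells of all groups had been trypsinised, stained with antibodies and sorted by flow cytometry before poly-A RNA was sequenced. The reprogramming factors and the allele that carries them are not given in the sources used here. Every value is from a population in bulk, in which fewer dividing cells and less RNA per dividing cell cannot be told apart.

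Cells enter mitosis when Cdk1, bound to cyclin A or cyclin B, becomes active, and they leave it when the anaphase-promoting complex, with its activator Cdc20, marks cyclin B for destruction. Most genes of this programme are transcribed late in the cell cycle, from promoters on which the MuvB core complex acts with the DREAM repressors in resting cells and with B-Myb (Mybl2) and FoxM1 in dividing cells. Pluripotent stem cells of the mouse divide fast and with short gap phases, and fibroblasts divide more slowly and leave the cycle readily.

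Levels below are CPM, gene counts relative to the TMM-scaled library total, given for replicate 1 and then replicate 2. Fold changes and their standard errors (SE) are from edgeR's quasi-likelihood fit on all 12 libraries, and a gene counts as called where its p, adjusted by Benjamini and Hochberg over all 16240 genes, is under 0.05. With the fit's residual degrees of freedom pooled over the groups, 2 replicates a group carry these tests, and the labels do not say whether the replicates were separate cultures, so p-values measure only the spread between these samples. Gene counts per library ran from 9284060 to 22763548. In MEF replicate 2, the shallowest library, 47.2% of the reads that were counted, ambiguous or outside genes lay outside genes, in d6_Eff replicate 2 24.1%, and in the other libraries 5.10% to 11.7%. Fibroblast markers (8 genes) summed to 17705 and 48755 CPM in MEF as lowest and highest library and to 115 and 116 CPM in iPSC. On day 3 they summed to 7997 and 8462 CPM (d3_Ineff) and to 4759 and 5108 (d3_Eff). On day 6 they summed to 5018 and 5359 CPM (d6_Ineff) and to 484 and 734 (d6_Eff). Pluripotency markers (8 genes) summed to 2.22 and 2.37 CPM in MEF and to 8415 and 8917 CPM in iPSC. Their day 3 sums were 38.6 and 76.1 CPM (d3_Ineff) and 88.6 and 92.0 (d3_Eff). Their day 6 sums were 118 and 120.2 CPM (d6_Ineff) and 290.2 and 316 (d6_Eff). Of the sorting markers, Ly6a (Sca1) was at 639.6 and 869 CPM in d3_Ineff against 84.1 and 80.2 in d3_Eff, and Epcam at 27.7 and 27.8 CPM in d6_Ineff against 947 and 994 in d6_Eff. Leukocyte markers (7 genes) summed to at most 12.9 CPM in any library and keratinocyte markers (3 genes) to at most 0.838. Neural markers (4 genes) summed to 95.1 and 177 CPM in MEF, to 70.7 and 94.5 in d6_Ineff and to 47.4 and 60.6 in d6_Eff as lowest and highest library. Endothelial markers (4 genes) moved with the groups: they summed to 1.95 and 3.20 CPM in MEF, on day 3 to 154 and 160.2 (d3_Ineff) and 115 and 147 (d3_Eff), on day 6 to 147 and 153 (d6_Ineff) and 72.4 and 74.2 (d6_Eff), and the iPSC sums were 54.2 and 56.2 CPM. Tek made up most of that sum in the sorted groups and Pecam1 in iPSC, while Cdh5 stayed at 6.22 CPM or less in every library. Skeletal muscle markers (4 genes) summed to 71.1 and 84.0 CPM in MEF and to at most 8.64 CPM elsewhere, and the part of these marker lists in the differences between groups was not tested.

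The mitosis genes were low in fibroblasts, high by day 3, and highest in iPSC, and on day 6 their sum was higher in d6_Eff than in d6_Ineff. The 32 genes together took 2003 and 1596 CPM in MEF. On day 3 they summed to 4622 and 4600.3 CPM (d3_Ineff) and to 5703 and 5465 CPM (d3_Eff), and on day 6 to 3168 and 3137 CPM (d6_Ineff) and to 5300.1 and 5337 CPM (d6_Eff). The iPSC libraries held 7349 and 6799 CPM. No 2 groups overlapped in this sum, and d6_Ineff lay lowest of the 4 sorted groups. By group mean, iPSC was the highest group for 20 of the 32 genes, d3_Eff for 7, d6_Eff for 4 and d3_Ineff for 1. MEF was the lowest group for 30 genes, d6_Ineff for Cenpe and iPSC for Mki67.

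**Figure D1:**
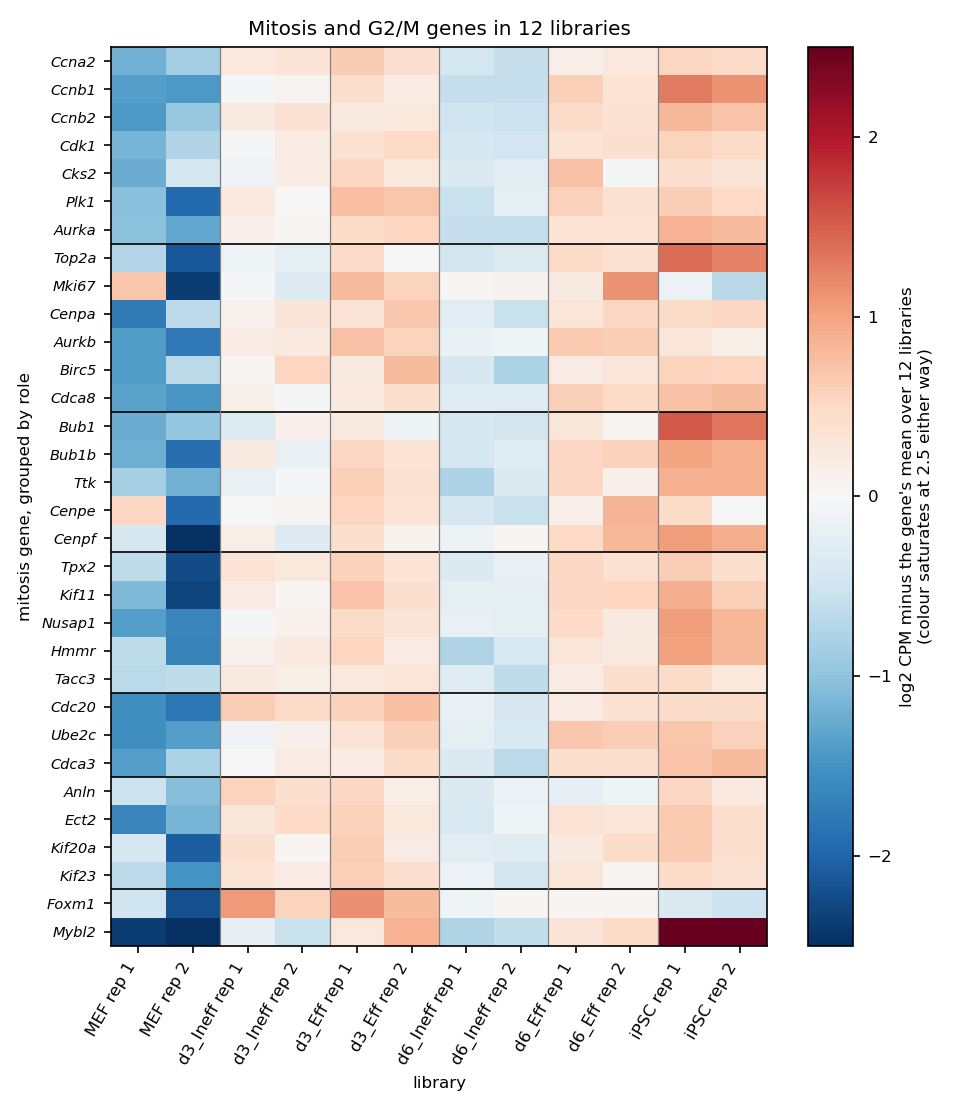
Level of each of the 32 mitosis and G2/M genes in the 12 libraries, as log2 CPM relative to that gene's mean over libraries, with genes in rows ordered by role and libraries in columns by group. Most rows are lowest in MEF and highest in iPSC, the d6_Ineff columns lie below d6_Eff, and Mki67, Cenpe and Cenpf are lower in MEF replicate 2 than in MEF replicate 1.

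The promoters of many of these genes share short elements. The cell-cycle homology region (CHR) is the element that the MuvB core binds, and CCAAT boxes bind NF-Y. RefSeq promoter windows (GRCm38.p6, 250 bases before to 50 after the start) were found for 27 of the 32 genes, and none was matched for Aurkb, Kif20a, Tpx2, Ccna2 and Foxm1. The windows of 4 genes with both kinds of element, and that of Mybl2, whose window holds neither, are shown because the results below turn on these genes. They were chosen after their values were seen. Each window reads 5′ to 3′ on the gene's strand. Capitals mark the CHR letters TTTGAA or TTCGAA and the CCAAT letters, each searched on both strands, so that ATTGG is a CCAAT box on the other strand.
Ccnb2 (chr9:70421505-70421804, minus strand): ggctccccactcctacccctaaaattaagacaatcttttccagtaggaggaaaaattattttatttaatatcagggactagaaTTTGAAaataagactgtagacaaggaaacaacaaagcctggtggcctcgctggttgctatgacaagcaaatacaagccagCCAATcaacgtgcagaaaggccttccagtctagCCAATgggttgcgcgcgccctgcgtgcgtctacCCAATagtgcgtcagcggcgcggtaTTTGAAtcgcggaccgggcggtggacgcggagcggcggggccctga
Cdk1 (chr10:69352863-69353162, minus strand): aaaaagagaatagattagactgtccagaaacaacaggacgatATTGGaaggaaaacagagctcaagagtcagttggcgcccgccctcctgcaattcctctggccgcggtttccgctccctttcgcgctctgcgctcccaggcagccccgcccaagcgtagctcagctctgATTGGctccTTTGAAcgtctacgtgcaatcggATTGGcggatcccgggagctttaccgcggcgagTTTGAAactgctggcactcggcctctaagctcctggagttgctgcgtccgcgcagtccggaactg
Cdc20 (chr4:118437294-118437593, minus strand): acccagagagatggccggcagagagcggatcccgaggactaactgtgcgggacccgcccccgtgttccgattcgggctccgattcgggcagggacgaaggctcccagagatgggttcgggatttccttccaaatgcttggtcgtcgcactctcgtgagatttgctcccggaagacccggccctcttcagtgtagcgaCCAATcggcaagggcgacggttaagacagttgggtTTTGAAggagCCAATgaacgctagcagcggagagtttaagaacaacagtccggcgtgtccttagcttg
Mki67 (chr7:135716330-135716629, minus strand): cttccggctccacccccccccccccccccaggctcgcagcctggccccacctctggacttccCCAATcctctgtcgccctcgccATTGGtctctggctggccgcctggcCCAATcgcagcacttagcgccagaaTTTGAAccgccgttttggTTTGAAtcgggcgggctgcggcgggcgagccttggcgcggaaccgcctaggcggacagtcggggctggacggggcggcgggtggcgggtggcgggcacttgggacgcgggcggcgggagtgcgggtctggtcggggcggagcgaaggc
Mybl2 (chr2:163054385-163054684, plus strand): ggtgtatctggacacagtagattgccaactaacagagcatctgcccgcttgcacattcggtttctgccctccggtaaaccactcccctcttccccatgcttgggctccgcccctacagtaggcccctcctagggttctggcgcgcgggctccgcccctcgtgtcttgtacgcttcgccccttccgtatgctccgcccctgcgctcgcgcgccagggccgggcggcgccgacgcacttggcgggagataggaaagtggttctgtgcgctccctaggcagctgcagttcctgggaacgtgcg

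CHR letters were in 20 of the 27 windows (74.1%), against 16.1% of the 11371 tested genes with a window, 24.0% of 25 DNA replication and G1/S genes with one and 50.9% of 110 genes of the other mitosis lists. CCAAT letters were in 22 windows (81.5%), against 42.8% of tested genes, 64.0% of the G1/S genes and 58.2% of the other mitosis lists. At least 2 of them were in 17 windows (63.0%), against 16.0%, 40.0% and 30.9%. Both kinds of letters occurred in 19 windows (70.4%), against 6.81% of tested genes, 20.0% of the G1/S genes and 34.5% of the other mitosis lists. Within 75 bases before to 50 after the start, a span set after the positions were seen, 19 of the 27 windows held CHR letters, against 5.45% of tested genes. Birc5, Nusap1, Tacc3 and Mybl2 held neither. A match is a stretch of letters and not a measured binding site. The 20 genes with CHR letters had a median log2 fold change of 1.97 in iPSC against MEF and the 7 without them 1.54; in d6_Eff against d6_Ineff the medians were 0.83 and 0.84.

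Against MEF, nearly all mitosis genes were called higher in every group but d6_Ineff, where the rise was smaller and fewer were called. The comparisons with MEF share the 2 MEF libraries, so they are not independent of each other. In iPSC, 29 of the 32 genes were higher and 0 lower (26.0% of all tested genes were higher), with a median log2 fold change of 1.90 over the 32. In d3_Ineff, 28 were higher (15.0% of all tested genes), with a median of 1.32. In d3_Eff, 29 were higher (18.0% of all tested genes), with a median of 1.54, and in d6_Eff 30 (20.9% of all tested genes), with a median of 1.51. In d6_Ineff, 15 were higher (15.6% of all tested genes), with a median of 0.72. There, 31 of the 32 log2 fold changes were positive, and DESeq2 and limma voom each called 20 higher. None of the 32 was lower by edgeR in any of the 5 (of all tested genes, 26.7% were lower in iPSC, 15.0% in d3_Ineff, 18.6% in d3_Eff, 15.2% in d6_Ineff and 21.7% in d6_Eff), and 0 had an unadjusted p under 0.05 for a lower level there; DESeq2 and limma voom also called 0 lower. Over all tested genes the median log2 fold change was 0 to 0.04 in each of these 5 comparisons. In all, 15 members were higher in all 5, 27 in the 4 other than d6_Ineff, and Mki67 and Cenpe in none. The d6_Ineff count rose without MEF replicate 1, where higher calls over all genes also rose, and fell without d6_Ineff replicate 2. Scaling by library totals in place of TMM gave 27, where higher calls over all tested genes went from 2538 to 3599. Fits on only the 2 groups compared called 13 of the 32 in d3_Ineff, 4 in d6_Ineff and 18 in d6_Eff. Calls over all tested genes also fell in those fits.

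Of the kinases and cyclins of mitotic entry, Ccnb1 (ENSMUSG00000041431), which encodes cyclin B1, the partner that brings Cdk1 to activity at mitotic onset, held 50.4 and 49.0 CPM in MEF. Its day 3 levels were 127 and 138 CPM (d3_Ineff) and 178 and 150.2 CPM (d3_Eff), its day 6 levels 86.9 and 88.2 CPM (d6_Ineff) and 199 and 168 CPM (d6_Eff), and its iPSC levels 323 and 285 CPM. Both MEF libraries lay below those of every other group, and both iPSC libraries above, with d6_Ineff nearest to MEF. The log2 fold change of iPSC against MEF was 2.61 ± 0.18 (SE, adjusted p = 6.54e-07) and of d6_Ineff against MEF 0.82 ± 0.17 (adjusted p = 0.00389). Cdk1 (ENSMUSG00000019942), the kinase itself, held 105 and 138 CPM in MEF, 229 and 265 in d3_Ineff and 306 and 329 in d3_Eff. Its d6_Ineff libraries were at 173 and 168 CPM, those of d6_Eff at 299 and 311 and those of iPSC at 347 and 329. Its d3_Eff, d6_Eff and iPSC libraries lay within a narrow band of one another, d3_Eff and iPSC overlapped, and d6_Ineff lay between MEF and d3_Ineff. Cdk1 rose in iPSC (log2 fold change 1.47 ± 0.18 (SE), adjusted p = 4.47e-05) and in d3_Ineff (log2 fold change 1.02 ± 0.18 (SE), adjusted p = 0.00134), and in d6_Ineff its log2 fold change of 0.49 ± 0.18 was not called (adjusted p = 0.0586). Without d6_Ineff replicate 2, Ccnb1 in d6_Ineff missed the threshold (adjusted p = 0.0532).

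Plk1 (ENSMUSG00000030867), the Polo-like kinase that acts at entry, on the spindle and in cytokinesis, held 66.3 and 35.6 CPM in MEF, 162 and 136 in d3_Ineff and 228 and 220.4 in d3_Eff. On day 6 its d6_Ineff libraries were at 92.8 and 115 CPM and its d6_Eff libraries at 204 and 177, and iPSC held 209 and 192 CPM, so that its highest group was d3_Eff and MEF lay below all others. Plk1 rose in d3_Eff (log2 fold change 2.13 ± 0.27 (SE), adjusted p = 1.05e-04) and in iPSC (log2 fold change 1.97 ± 0.27 (SE), adjusted p = 9.11e-05). Ccnb2 (cyclin B2), Ccna2 (cyclin A2, which acts from S phase to early mitosis) and Aurka (the Aurora kinase of centrosomes and spindle poles) rose in all 5 comparisons with MEF. Their log2 fold changes in iPSC were 1.92, 1.53 and 1.98, and in d6_Ineff 0.65, 0.52 and 0.57. Those d6_Ineff calls were lost in 7, 11 and 7 of the 12 fits that each left out 1 library, at adjusted p up to 0.142, 0.280 and 0.135 by edgeR. For Cks2, a small subunit of Cdk complexes, the d3_Ineff change of 0.85 ± 0.30 was not called (adjusted p = 0.0566).

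Of the other genes of mitotic entry, Ccna2 was at 84.1 and 107 CPM in MEF, at 233 and 244 (d3_Ineff) and 299 and 259 (d3_Eff), at 143 and 130.3 (d6_Ineff) and 217 and 231 (d6_Eff), and at 279.7 and 269 (iPSC). Ccnb2 was at 55.5 and 78.0 CPM in MEF, at 175 and 191 (d3_Ineff) and 176 and 179 (d3_Eff), at 106 and 104 (d6_Ineff) and 209 and 193 (d6_Eff), and at 261 and 244 (iPSC). Aurka was at 53.9 and 44.4 CPM in MEF, at 119 and 112 (d3_Ineff) and 150.5 and 158 (d3_Eff), at 73.2 and 72.8 (d6_Ineff) and 139 and 139 (d6_Eff), and at 199 and 189 (iPSC). In all 3 the MEF pair lay lowest, and d6_Ineff came next above it. Cks2 was at 15.7 and 27.5 CPM in MEF, at 34.9 and 42.0 (d3_Ineff) and 52.9 and 44.5 (d3_Eff), at 28.7 and 30.3 (d6_Ineff) and 61.8 and 36.5 (d6_Eff), and at 49.5 and 46.3 (iPSC).

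Among genes of the kinetochore and the spindle checkpoint, which holds anaphase until chromosomes are attached, Bub1b (BubR1) held 61.9 and 39.1 CPM in MEF, 169 and 127 in d3_Ineff and 208 and 182 in d3_Eff. Its d6_Ineff pair was at 106 and 117 CPM, the d6_Eff pair at 205 and 215 and the iPSC pair at 286 and 269. The iPSC pair was the highest and the MEF pair the lowest, with no overlap of either with another group. Bub1b rose in iPSC (log2 fold change 2.45 ± 0.24 (SE), adjusted p = 7.73e-06), and so did the checkpoint kinases Bub1 (log2 fold change 2.54 ± 0.23 (SE), adjusted p = 4.11e-06) and Ttk (Mps1; log2 fold change 1.88 ± 0.23 (SE), adjusted p = 5.15e-05). Cenpf, a large protein of the outer kinetochore, rose in iPSC (log2 fold change 2.14 ± 0.57 (SE), adjusted p = 0.00872) and in d6_Eff (log2 fold change 1.83 ± 0.57 (SE), adjusted p = 0.0225), and its changes in the other 3 groups were not called; the d6_Eff call was lost without d6_Eff replicate 1 or 2 (adjusted p = 0.0954 at most by edgeR). Cenpe, the kinetochore motor kinesin-7, was called in none of the 5, with log2 fold changes from -0.29 in d6_Ineff to 0.74 in d6_Eff. These values turned with the MEF library: without MEF replicate 1, Cenpe was called higher in d6_Ineff, at 1.45 (adjusted p = 0.00107 by edgeR), and in d6_Eff, at 2.47 (adjusted p = 4.19e-06). Without MEF replicate 2 it was called lower in d6_Ineff, at -1.10 (adjusted p = 0.00261 by edgeR), and lay at -0.096 in d6_Eff (adjusted p = 0.814).

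Bub1 was at 36.6 and 44.1 CPM in MEF, at 68.4 and 94.4 (d3_Ineff) and 102 and 78.7 (d3_Eff), at 63.5 and 62.7 (d6_Ineff) and 107 and 90.5 (d6_Eff), and at 250.2 and 217 (iPSC). Ttk was at 24.1 and 18.6 CPM in MEF, at 37.5 and 42.0 (d3_Ineff) and 65.0 and 55.8 (d3_Eff), at 25.03 and 33.1 (d6_Ineff) and 61.4 and 46.5 (d6_Eff), and at 79.2 and 78.9 (iPSC). For both, every library outside MEF lay above the MEF pair. The long genes Cenpf and Cenpe had MEF replicates far apart. Cenpf was at 40.6 and 6.14 CPM in MEF, at 59.8 and 43.4 (d3_Ineff) and 71.2 and 57.4 (d3_Eff), at 49.5 and 55.9 (d6_Ineff) and 76.5 and 95.1 (d6_Eff), and at 111 and 101 (iPSC). Cenpe was at 54.5 and 9.91 CPM in MEF, at 37.7 and 39.9 (d3_Ineff) and 54.8 and 48.1 (d3_Eff), at 28.2 and 25.6 (d6_Ineff) and 41.6 and 67.9 (d6_Eff), and at 52.3 and 38.3 (iPSC).

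In the chromosomal passenger complex, which corrects faulty attachments, the kinase Aurkb (ENSMUSG00000020897) held 36.0 and 27.5 CPM in MEF, 107 and 111 in d3_Ineff and 157 and 139 in d3_Eff. Day 6 levels were 84.6 and 87.7 CPM (d6_Ineff) and 149 and 145 CPM (d6_Eff), and iPSC levels 116 and 105 CPM. Aurkb was therefore lowest in MEF and highest in d3_Eff and d6_Eff, with both iPSC libraries below those 2 groups. It rose in d3_Eff (log2 fold change 2.21 ± 0.18 (SE), adjusted p = 6.30e-06) and in iPSC (log2 fold change 1.79 ± 0.18 (SE), adjusted p = 1.09e-05). Its partners Cdca8 (borealin) and Birc5 (survivin) rose by 2.15 and 1.54 on the log2 scale in iPSC, and in d6_Ineff Cdca8 rose by 1.09 while Birc5, at 0.42, was not called. Cenpa, the centromeric histone H3 variant, rose in iPSC (log2 fold change 1.59 ± 0.30 (SE), adjusted p = 0.00104).

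Cdca8 was at 40.0 and 37.1 CPM in MEF, at 112 and 99.8 (d3_Ineff) and 121 and 134 (d3_Eff), at 82.6 and 81.9 (d6_Ineff) and 153 and 144 (d6_Eff), and at 168 and 175 (iPSC). Birc5 was at 51.4 and 84.2 CPM in MEF, at 142 and 196 (d3_Ineff) and 158 and 233 (d3_Eff), at 103 and 77.9 (d6_Ineff) and 156 and 167 (d6_Eff), and at 198 and 195 (iPSC). Cenpa was at 53.4 and 114 CPM in MEF, at 195 and 226 (d3_Ineff) and 227 and 288 (d3_Eff), at 149 and 121 (d6_Ineff) and 220.3 and 258 (d6_Eff), and at 245 and 256 (iPSC). All 3 had their lowest group mean in MEF.

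Top2a (ENSMUSG00000020914), topoisomerase II alpha, which untangles sister chromatids, held 212 and 80.6 CPM in MEF, 326 and 301 in d3_Ineff and 491 and 355 in d3_Eff. On day 6 its d6_Ineff libraries were at 257 and 278 CPM and its d6_Eff libraries at 492 and 459, and iPSC held 927 and 826 CPM. The iPSC pair lay far above every other library, and the MEF replicates differed 2.63-fold. Top2a rose in iPSC (log2 fold change 2.58 ± 0.37 (SE), adjusted p = 1.32e-04) and in d3_Ineff (log2 fold change 1.10 ± 0.35 (SE), adjusted p = 0.0348). The d3_Eff call was lost without d3_Eff replicate 1 (adjusted p = 0.0529 by edgeR). The d3_Ineff call was lost without MEF replicate 2 (log2 fold change 0.50, adjusted p = 0.0557 by edgeR) and without either d3_Ineff replicate.

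Of the genes that build the spindle, Kif11 (the kinesin-5 motor Eg5) held 49.8 and 21.5 CPM in MEF, 175 and 141 in d3_Eff and 203 and 163 in iPSC, and rose in iPSC (log2 fold change 2.34 ± 0.32 (SE), adjusted p = 9.85e-05). Nusap1, a microtubule-bundling protein, rose in all 5 comparisons, by 2.44 in iPSC and 1.30 in d6_Ineff on the log2 scale. Tpx2 (activator of Aurora A), Hmmr and Tacc3 rose in 4 of the 5, all but d6_Ineff. Tacc3, with 75.8 and 77.9 CPM in MEF and 165 and 144 in iPSC, had the smallest called increase in iPSC of the 32 genes (log2 fold change 1.01 ± 0.18 (SE), adjusted p = 5.85e-04). Of the genes of cytokinesis, Ect2, which activates RhoA at the division plane, rose in all 5 comparisons, by 1.94 in iPSC. Kif23, Kif20a and Anln (anillin) rose in the 4 other than d6_Ineff, with log2 fold changes in iPSC of 1.43, 1.56 and 1.16. The d6_Eff call of Anln (log2 fold change 0.62 ± 0.22 (SE), adjusted p = 0.0371) was lost in 10 of the 12 fits, and that of Kif20a without d6_Eff replicate 2. Kif20a also lost its d3_Eff call without d3_Eff replicate 1, and its d3_Ineff call without either d3_Ineff replicate.

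Among the spindle genes, Kif11 was at 49.8 and 21.5 CPM in MEF, at 124 and 111 (d3_Ineff) and 175 and 141 (d3_Eff), at 91.4 and 90.3 (d6_Ineff) and 153 and 156 (d6_Eff), and at 203 and 163 (iPSC). Nusap1 was at 38.9 and 32.5 CPM in MEF, at 98.0 and 109 (d3_Ineff) and 141 and 127 (d3_Eff), at 89.7 and 86.9 (d6_Ineff) and 144 and 118 (d6_Eff), and at 209.5 and 179 (iPSC). Tpx2 was at 103 and 33.8 CPM in MEF, at 202 and 192 (d3_Ineff) and 237 and 204 (d3_Eff), at 125 and 140.2 (d6_Ineff) and 229.6 and 207 (d6_Eff), and at 244 and 209.8 (iPSC). Each had its lowest group mean in MEF. Hmmr, a hyaluronan receptor that also binds the spindle, was at 43.2 and 21.2 CPM in MEF, at 72.4 and 79.7 (d3_Ineff) and 97.6 and 77.4 (d3_Eff), at 40.0 and 51.6 (d6_Ineff) and 82.7 and 78.9 (d6_Eff), and at 135 and 120.0 (iPSC). Tacc3 was at 75.8 and 77.9 CPM in MEF, at 140.2 and 134 (d3_Ineff) and 144 and 148 (d3_Eff), at 98.3 and 78.1 (d6_Ineff) and 137 and 158 (d6_Eff), and at 165 and 144 (iPSC).

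Among the cytokinesis genes, Ect2 was at 44.8 and 62.8 CPM in MEF, at 171 and 199 (d3_Ineff) and 212 and 168 (d3_Eff), at 108 and 131 (d6_Ineff) and 178 and 173 (d6_Eff), and at 224 and 188 (iPSC). Kif23 was at 55.2 and 30.6 CPM in MEF, at 109 and 99.2 (d3_Ineff) and 129.9 and 116 (d3_Eff), at 77.8 and 63.2 (d6_Ineff) and 107 and 89.9 (d6_Eff), and at 121 and 112 (iPSC). Kif20a was at 51.0 and 16.6 CPM in MEF, at 92.7 and 71.2 (d3_Ineff) and 107 and 79.3 (d3_Eff), at 57.2 and 56.2 (d6_Ineff) and 81.1 and 95.3 (d6_Eff), and at 109 and 92.4 (iPSC). Both kinesins and Ect2 had their lowest group mean in MEF. Anln was at 144 and 99.7 CPM in MEF, at 307 and 274 (d3_Ineff) and 300.5 and 234 (d3_Eff), at 163 and 189 (d6_Ineff) and 181 and 194 (d6_Eff), and at 298 and 247 (iPSC).

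Of the genes of anaphase, Cdc20, the activator of the anaphase-promoting complex, held 94.1 and 77.9 CPM in MEF, 418 and 381 in d3_Ineff and 406 and 461 in d3_Eff. Its d6_Ineff pair was at 245 and 203 CPM, the d6_Eff pair at 314 and 358 and the iPSC pair at 377 and 377. All libraries of the other 5 groups lay above both MEF libraries, and d3_Ineff was above iPSC. Cdc20 rose in d3_Ineff (log2 fold change 2.21 ± 0.19 (SE), adjusted p = 1.04e-05), in d6_Ineff (log2 fold change 1.38 ± 0.18 (SE), adjusted p = 1.93e-04) and in iPSC (log2 fold change 2.13 ± 0.19 (SE), adjusted p = 3.74e-06). Ube2c, the E2 enzyme of the same complex, rose in all 5 comparisons, by 1.13 in d6_Ineff and 2.09 in iPSC. Cdca3, an adaptor that directs Wee1 to degradation, rose in the 4 other than d6_Ineff.

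Ube2c was at 69.2 and 77.3 CPM in MEF, at 188 and 219 (d3_Ineff) and 252 and 303 (d3_Eff), at 168 and 153 (d6_Ineff) and 317 and 307 (d6_Eff), and at 322 and 300.1 (iPSC). Cdca3 was at 46.1 and 69.7 CPM in MEF, at 120.5 and 138 (d3_Ineff) and 137 and 164 (d3_Eff), at 93.2 and 76.5 (d6_Ineff) and 160.3 and 160.0 (d6_Eff), and at 196 and 209 (iPSC). Both had d6_Ineff as the lowest of the 4 sorted groups.

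Mki67 (ENSMUSG00000031004), the gene of the proliferation antigen Ki-67, which coats mitotic chromosomes, did not follow this order. It held 90.6 and 10.9 CPM in MEF, 55.3 and 45.1 in d3_Ineff and 97.4 and 83.1 in d3_Eff. Day 6 levels were 58.1 and 59.7 CPM (d6_Ineff) and 65.3 and 123 CPM (d6_Eff), and iPSC levels 51.0 and 34.7 CPM. The MEF replicates differed 8.32-fold and their range took in every iPSC, d3_Ineff and d6_Ineff library, and Mki67 was not called in iPSC (log2 fold change -0.26 ± 0.65 (SE), adjusted p = 0.761) or in d6_Eff (log2 fold change 0.87 ± 0.65 (SE), adjusted p = 0.315). Without MEF replicate 2, Mki67 was called lower in iPSC, at a log2 fold change of -1.14 (adjusted p = 0.00596, by edgeR), and without MEF replicate 1 it was called higher there, at 1.99 (adjusted p = 3.95e-04). The direction for Mki67 in iPSC against MEF thus turned with the MEF library used, as that of Cenpe did in d6_Ineff. Mki67 in d3_Ineff against MEF turned in the same way.

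The other members with such a gap between the MEF replicates were Cenpf (6.61-fold; 40.6 and 6.14 CPM) and Cenpe (5.50-fold; 54.5 and 9.91 CPM). These 3 genes have exon lengths of 10061, 15433 and 8620 bases. Over the 32 genes, the log2 ratio of MEF replicate 2 to replicate 1 fell with exon length, at r = -0.61 and rho = -0.55 (32 genes of 1 pair of libraries, so a description). The 5 members with over 8000 bases of exon were all lower in replicate 2, with a median log2 ratio of -2.45. Over all tested genes of that length (2528 genes) the median was -0.87, and for those under 2000 bases 0.37. In the other 5 groups the median of the longest genes lay between -0.21 and 0.07. The values of long members in MEF thus differ between the 2 libraries, and the part of this in the fold changes was measured only by leaving each library out.

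**Figure D2:**
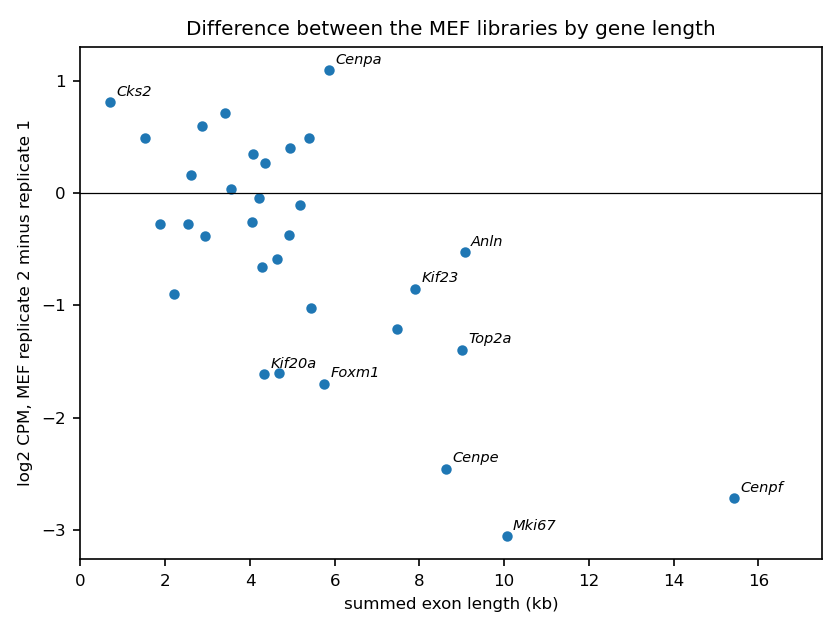
Log2 ratio of MEF replicate 2 to MEF replicate 1 (vertical axis) against exon length in kilobases (horizontal axis) for the 32 mitosis and G2/M genes, 1 point per gene. Mki67, Cenpf and Cenpe lie lowest, below -2.4, and genes under 6 kb lie mostly within 1 of 0.

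For the whole set, the counts against MEF were also taken with each MEF library left out. Without MEF replicate 2, 29 genes were higher in iPSC, 28 in d3_Ineff, 29 in d3_Eff, 19 in d6_Ineff and 28 in d6_Eff, where 23.2%, 14.8%, 16.8%, 13.9% and 19.2% of all 17477 genes then tested were higher. In those fits Mki67 was called lower in iPSC and in d3_Ineff, and Cenpe in d6_Ineff. Without MEF replicate 1 the counts were 32, 31, 32, 24 and 32, where 27.0%, 22.6%, 23.9%, 23.7% and 25.4% of all 17416 genes then tested were higher, and 0 members were lower by edgeR.

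The 2 transcription factors of the programme differed from each other. Mybl2 (ENSMUSG00000017861), which encodes B-Myb, held 15.6 and 10.3 CPM in MEF, 70.0 and 54.8 in d3_Ineff and 96.9 and 148 in d3_Eff. On day 6 its d6_Ineff libraries were at 47.9 and 52.8 CPM and its d6_Eff libraries at 101 and 114, and iPSC held 548 and 568 CPM. Both iPSC libraries lay above every other library by several-fold, and the highest group mean was 43.1 times the lowest, the widest range of the 32 genes. Mybl2 rose in all 5 comparisons, most in iPSC (log2 fold change 5.41 ± 0.30 (SE), adjusted p = 1.37e-07). Foxm1 (ENSMUSG00000001517), the forkhead factor of G2 and M genes, held 40.4 and 12.4 CPM in MEF, 119 and 84.4 in d3_Ineff and 127 and 98.2 in d3_Eff. Its d6_Ineff pair was at 53.4 and 57.9 CPM, the d6_Eff pair at 59.4 and 58.9 and the iPSC pair at 44.4 and 39.8. Its day 3 libraries were the highest, and its iPSC pair overlapped MEF.

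Foxm1 rose in d3_Ineff (log2 fold change 1.92 ± 0.41 (SE), adjusted p = 0.00464) and d3_Eff (log2 fold change 2.06 ± 0.41 (SE), adjusted p = 0.0024). Its change in iPSC was not called (log2 fold change 0.65 ± 0.40 (SE), adjusted p = 0.2), and its call in d6_Eff (log2 fold change 1.14 ± 0.40 (SE), adjusted p = 0.0413) was lost in 11 of 12 fits that left out 1 library. The MEF replicates of Foxm1 differed 3.25-fold. Without the filter on low counts, Foxm1 was called higher in iPSC (log2 fold change 0.64, adjusted p = 0.0465 by edgeR). Per kilobase of exon, the level of Mybl2 relative to Foxm1 was 0.479 and 1.03 in the MEF libraries, 0.729 and 0.807 in d3_Ineff and 0.949 and 1.88 in d3_Eff. On day 6 the ratio was 1.12 and 1.13 (d6_Ineff) and 2.11 and 2.39 (d6_Eff), and the iPSC libraries were at 15.3 and 17.7. The iPSC and d6_Eff ratios were each above every library of the groups named before them.

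**Figure D3:**
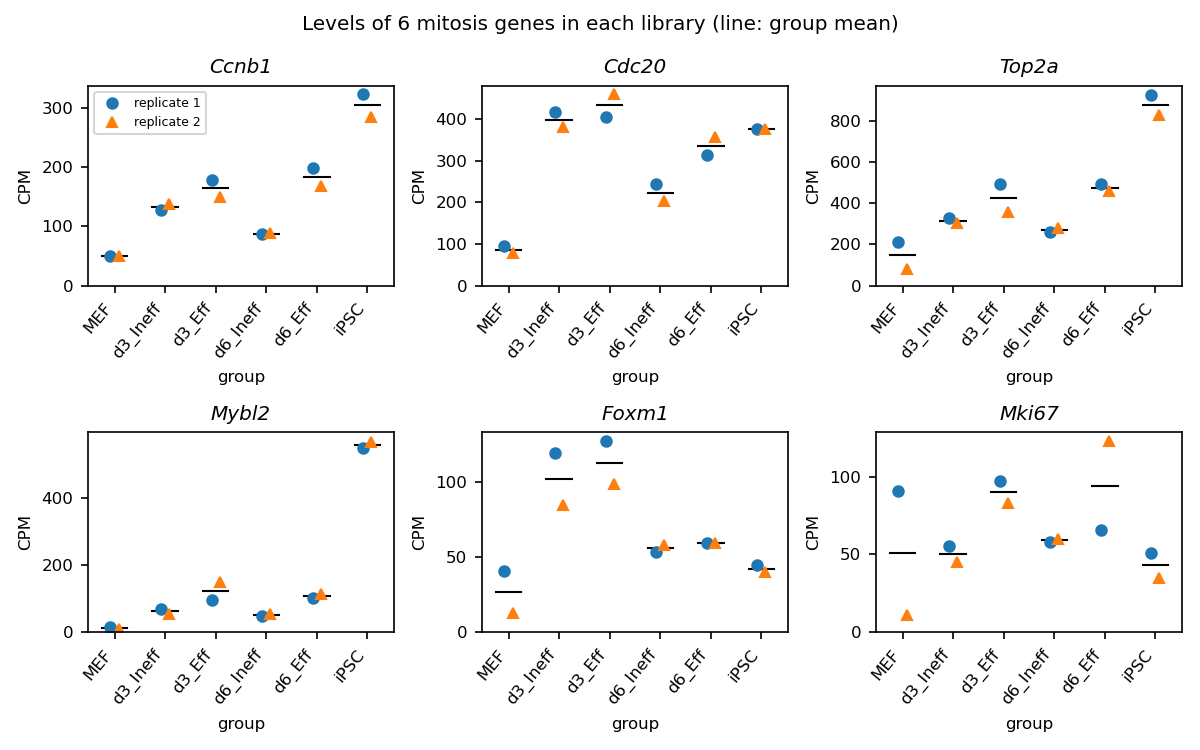
Level in CPM (vertical axes, from 0) of Ccnb1, Cdc20, Top2a, Mybl2, Foxm1 and Mki67 in the 12 libraries, 1 panel per gene. Each library is a point, and a bar marks the mean of the 2. Ccnb1, Top2a and Mybl2 are highest in iPSC, Foxm1 is highest on day 3, and the MEF points of Mki67 lie far apart.

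The 2 day 3 populations were then set against each other, and so were the 2 of day 6. On day 3, the mitosis genes were slightly higher in d3_Eff than in d3_Ineff, and none was called. The log2 fold change was positive for 30 of the 32 genes, with a median of 0.30 and a median of 0 over all tested genes. By edgeR's adjusted p, 0 of 32 were called (0.400% of all tested genes in either direction), 6 had an unadjusted p under 0.05, limma voom called 0 and DESeq2 called 1. The largest differences were those of Mybl2 (log2 fold change 0.97 ± 0.25 (SE), adjusted p = 0.145) and Mki67 (log2 fold change 0.85 ± 0.65 (SE), adjusted p = 0.867). Ccnb1 was at 0.31 ± 0.17 (adjusted p = 0.718) and Plk1 at 0.59 ± 0.25 (adjusted p = 0.575). For 21 of the 32 genes both d3_Eff libraries lay above both d3_Ineff libraries, as they did for 19.7% of all tested genes.

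By day 6, all 32 genes had a higher mean in d6_Eff than in d6_Ineff, and 14 were called higher (5.38% of all tested genes were higher). The median log2 fold change was 0.79, against 0 over all tested genes. For 31 of the 32, both d6_Eff libraries lay above both d6_Ineff libraries (30.6% of all tested genes), and Anln, at 163 and 189 against 181 and 194 CPM, was the exception. The 14 genes were Mybl2, Ccnb1, Ube2c, Ccnb2, Aurka, Bub1b, Cdca3, Ttk, Plk1, Cdca8, Cdk1, Aurkb, Tacc3 and Ccna2, which include 6 of the 7 genes of mitotic entry. Mybl2 (47.9 and 52.8 CPM in d6_Ineff, 101 and 114 in d6_Eff) had the largest change (log2 fold change 1.09 ± 0.25 (SE), adjusted p = 0.0131). Ccnb1, at 86.9 and 88.2 against 199 and 168 CPM, came next (log2 fold change 1.07 ± 0.17 (SE), adjusted p = 0.00201).

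Ube2c rose from 168 and 153 to 317 and 307 CPM (log2 fold change 0.96 ± 0.17 (SE), adjusted p = 0.00368), and Ccnb2 from 106 and 104 to 209 and 193 CPM (log2 fold change 0.94 ± 0.18 (SE), adjusted p = 0.00619). Cdk1 (log2 fold change 0.84 ± 0.18 (SE), adjusted p = 0.00947), Plk1 (log2 fold change 0.87 ± 0.26 (SE), adjusted p = 0.0428) and Aurkb (log2 fold change 0.77 ± 0.18 (SE), adjusted p = 0.0137) were also called. Each pair of d6_Eff libraries of these genes lay above the d6_Ineff pair. Top2a, at a log2 fold change of 0.83 ± 0.35 (adjusted p = 0.141), and Mki67, at 0.67 ± 0.65 (adjusted p = 0.55), were not called, and Foxm1 was at 0.09 ± 0.40 (adjusted p = 0.931). The count changed with the libraries in the fit. It rose without MEF replicate 1 or without MEF replicate 2, where higher calls over all genes also rose. It fell without any 1 of the 4 day 6 libraries, and calls over all genes also fell without d6_Eff replicate 2. With MEF replicate 2 and d6_Eff replicate 2 both left out, an alternative added after the data were seen, it was 26. DESeq2 called 19 and limma voom 18. Of the 14, Ccnb1 kept its call in all 12 fits that left out 1 library, Ube2c lost it without d6_Ineff replicate 2 (adjusted p = 0.0759 by edgeR), and Cdk1, Aurkb, Mybl2, Ccnb2, Bub1b and Cdca3 lost it without any 1 of the 4 day 6 libraries. Plk1 lost it in 10 of the 12, Ttk and Ccna2 in 7, Tacc3 in 6, Cdca8 in 3 and Aurka in 2.

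**Figure D4:**
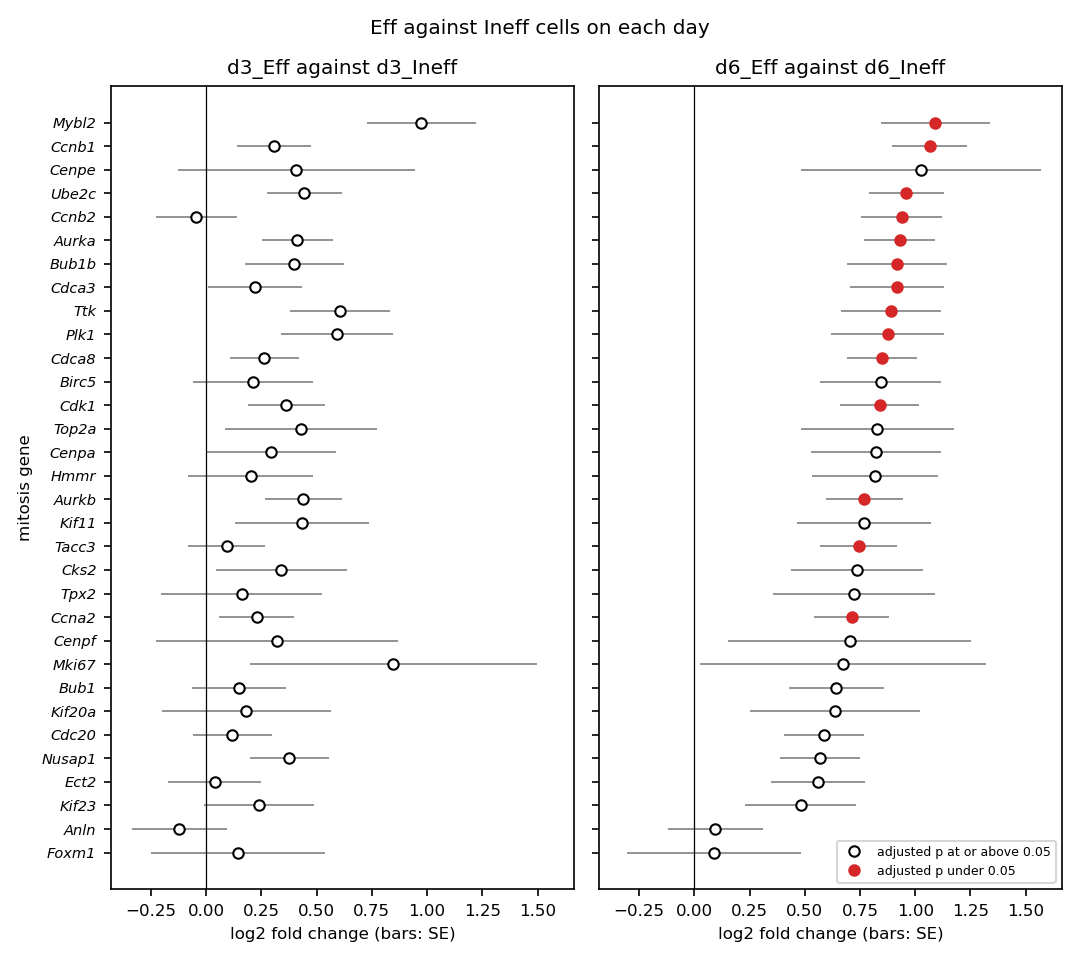
Log2 fold change of Eff against Ineff, with SE as error bars, for each of the 32 mitosis and G2/M genes on day 3 and on day 6. The day 6 points lie above 0 for all 32 genes and the day 3 points for 30.

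The difference between the days was tested directly. The log2 fold change of Eff against Ineff was larger on day 6 than on day 3 for 30 of the 32 genes, with a median difference of 0.48. By edgeR's adjusted p, 0 of 32 were called (1.39% of all tested genes in either direction), 6 had an unadjusted p under 0.05, limma voom called 0 and DESeq2 2. The difference was 0.98 ± 0.26 for Ccnb2 (adjusted p = 0.108) and 0.76 ± 0.24 for Ccnb1 (adjusted p = 0.183). The 2 that DESeq2 called were Ccnb2 (adjusted p = 0.0123) and Ccnb1 (adjusted p = 0.0286). By edgeR, fits on only the compared groups also called 2, those without MEF replicate 1 or without MEF replicate 2 called 3 each, and those without any 1 of the other 10 libraries called 0. With all 12 libraries in edgeR, the calls on day 6 and their lack on day 3 are not shown to differ for a single member.

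Day 6 was set against day 3 within each kind of population. In d6_Ineff against d3_Ineff, 4 of the 32 genes were lower (1.23% of all tested genes were lower) and 30 had a negative log2 fold change, with a median of -0.53. The 4 were Cdc20 (418 and 381 CPM on day 3, 245 and 203 on day 6; log2 fold change -0.84 ± 0.18 (SE), adjusted p = 0.0264), Ccna2 (log2 fold change -0.80 ± 0.17 (SE), adjusted p = 0.0257), Ccnb2 (log2 fold change -0.80 ± 0.18 (SE), adjusted p = 0.0338) and Aurka (log2 fold change -0.67 ± 0.16 (SE), adjusted p = 0.0422). For 30 of the 32 genes both day 6 libraries lay below both day 3 libraries (27.4% of all tested genes). The count depended on the libraries in the fit. It rose without MEF replicate 1 or without MEF replicate 2, where lower calls over all genes also rose. Leaving out 1 d3_Ineff, d6_Ineff or iPSC library ended every call, and leaving out 1 d3_Eff or d6_Eff library left fewer. With all libraries, 14 genes had an unadjusted p under 0.05. DESeq2 called 8 and limma voom 6. In d6_Eff against d3_Eff, 0 of 32 were called (9.11% of all tested genes in either direction), with a median log2 fold change of -0.03. There, 2 genes had an unadjusted p under 0.05, and DESeq2 and limma voom each called 0. Foxm1 had the lowest value, at -0.93 ± 0.40 (adjusted p = 0.205), its d6_Eff libraries lying below both d3_Eff libraries.

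Between d6_Eff and iPSC, 5 of the 32 genes were higher in iPSC (13.6% of all tested genes were higher) and 0 lower (15.9% of all tested genes were lower), with a median log2 fold change of 0.24. With all 12 libraries, the share of members called higher was thus near that of all genes, and the share called lower was below it. Mybl2 rose most (log2 fold change 2.38 ± 0.25 (SE), adjusted p = 4.12e-05), from 101 and 114 to 548 and 568 CPM. Bub1 (107 and 90.5 CPM in d6_Eff and 250.2 and 217 in iPSC; log2 fold change 1.25 ± 0.21 (SE), adjusted p = 0.0012) and Ccnb1 (log2 fold change 0.73 ± 0.17 (SE), adjusted p = 0.00726) followed, with Nusap1 (log2 fold change 0.57 ± 0.18 (SE), adjusted p = 0.0338) and Aurka (log2 fold change 0.48 ± 0.16 (SE), adjusted p = 0.0423). Mki67 lay at -1.13 ± 0.65 (adjusted p = 0.225) and Aurkb at -0.41 ± 0.17 (adjusted p = 0.101), neither called, and 1 member had an unadjusted p under 0.05 for a lower level. Without MEF replicate 1 or without MEF replicate 2, more members were called higher, and their share lay further above that of all genes. Some members were then called lower, at a share below that of all genes. Without any 1 of the other 10 libraries, fewer members were called. Nusap1 and Aurka were lost in each of those 10, and Ccnb1 without d6_Eff replicate 2 or iPSC replicate 1.

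Other genes of the same processes were counted in 8 lists, 131 genes in all, of which 130 were tested. In iPSC against MEF, 93 were higher and 5 lower (26.0% and 26.7% of all tested genes), with a median log2 fold change of 1.22. In d6_Eff against d6_Ineff, 34 were higher and 1 lower (5.38% of all tested genes were higher), with a median of 0.61. The lists of spindle motors, kinetochore, centromere, condensin and cohesin genes had medians of 1.30 to 1.57 in iPSC against MEF. In the list of the anaphase-promoting complex, the ubiquitin ligase of anaphase, 4 of the 16 genes were higher and 4 lower in iPSC against MEF. Both shares were near those of all tested genes, and the median was 0.01. In d6_Eff against d6_Ineff, 0 of the 16 genes of that list were called (2375 of all 16240 tested genes), with a median of -0.02. Within it, Ube2s, the chain-extending E2 enzyme (log2 fold change 1.87 ± 0.25 (SE), adjusted p = 1.01e-04), and Fzr1 (Cdh1; log2 fold change 1.35 ± 0.27 (SE), adjusted p = 0.00147) rose in iPSC, and the core subunits Anapc16 (log2 fold change -1.65 ± 0.24 (SE), adjusted p = 1.54e-04) and Cdc16 (log2 fold change -1.19 ± 0.18 (SE), adjusted p = 1.84e-04) fell.

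Of the mitotic entry regulators, Ccnf (cyclin F) rose in iPSC (log2 fold change 3.42 ± 0.20 (SE), adjusted p = 1.89e-07) and in d6_Eff against d6_Ineff (log2 fold change 1.07 ± 0.18 (SE), adjusted p = 0.00266), and fell in d6_Ineff against d3_Ineff (log2 fold change -0.80 ± 0.18 (SE), adjusted p = 0.0316). The kinetochore subunit Spc24 rose in iPSC (log2 fold change 3.29 ± 0.23 (SE), adjusted p = 6.56e-07) and in d6_Eff against d6_Ineff (log2 fold change 1.19 ± 0.21 (SE), adjusted p = 0.00326). Cdca5 (sororin, which protects cohesion) rose in iPSC (log2 fold change 3.03 ± 0.18 (SE), adjusted p = 2.87e-07) and in d6_Eff against d6_Ineff (log2 fold change 1.13 ± 0.17 (SE), adjusted p = 0.00149). The cytokinesis gene Cep55 fell in d6_Ineff against d3_Ineff (log2 fold change -1.01 ± 0.22 (SE), adjusted p = 0.0251) and in d6_Eff against d3_Eff (log2 fold change -0.77 ± 0.22 (SE), adjusted p = 0.0483), and was higher in iPSC than in d6_Eff (log2 fold change 1.50 ± 0.22 (SE), adjusted p = 3.71e-04). Genes of these lists went both ways in iPSC against d6_Eff. By edgeR, Ccnf was higher there (log2 fold change 1.54 ± 0.18 (SE), adjusted p = 8.28e-05). The spindle gene Ckap2 (log2 fold change -1.87 ± 0.18 (SE), adjusted p = 1.74e-05) and the entry regulator Cdc25b (log2 fold change -1.24 ± 0.18 (SE), adjusted p = 3.65e-04) were lower by edgeR. The d6_Ineff calls of Ccnf and Cep55 were lost in 10 and 6 of the 12 fits that left out 1 library, the d6_Eff call of Cep55 in 9, and the day 6 call of Ccnf without d6_Ineff replicate 1. The centromere gene Oip5 rose in iPSC (log2 fold change 2.77 ± 0.23 (SE), adjusted p = 2.23e-06), but its exons overlap those of Nusap1 on the other strand, and counting ignored strand. The same holds for Ube2s with Rpl28 and Fzr1 with Mfsd12. Exons of 8 of the 32 members share bases with a gene on the opposite strand, among them Ccna2, Plk1, Cdc20, Ube2c and Cdca8. Ambiguous reads were counted apart from genes, and how many came from these shared bases is not known.

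Beside the mitosis genes, 30 genes of DNA replication and G1/S were counted. In iPSC against MEF, 27 of the 30 were higher and 1 lower (26.0% and 26.7% of all tested genes), with a median log2 fold change of 2.15. Against MEF, 27 were higher in d3_Ineff (15.0% of all tested genes), 28 in d3_Eff (18.0%), 20 in d6_Ineff (15.6%) and 29 in d6_Eff (20.9%). In d6_Eff against d6_Ineff 18 of 30 were higher and 0 lower (5.38% of all tested genes were higher), with a median of 0.90. In d3_Eff against d3_Ineff 0 of 30 were called (0.400% of all tested genes in either direction), with a median of 0.42. In d6_Ineff against d3_Ineff 4 were lower (1.23% of all tested genes were lower), with a median of -0.53, beside -0.53 over the mitosis genes.

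Per kilobase of exon, the most abundant member in every group was Cdc20, at a mean of 46.0 CPM per kb in MEF and 202 in iPSC, and the second was Ccnb2, at 43.6 and 165. The third was Cks2 in MEF (31.2 CPM per kb), Ube2c in the 4 sorted groups and Mybl2 in iPSC (120.5). Mybl2 ranked 31 of 32 in MEF, at 2.80 CPM per kb. The 2 least abundant members were Cenpe and Cenpf in the 4 sorted groups and Cenpe and Mki67 in iPSC, at 3.12 to 6.35 CPM per kb.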

How the data were processed

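Poly-A RNA from 12 samples, 2 replicates of 6 groups, was sequenced from libraries made with a directional kit, per the labels' protocols. The authors deposited 1 table per sample of whole-number read counts per Ensembl gene. Per the submitters' processing notes, HTSeq 0.6.0, STAR 2.3.0 and Picard 1.100 were used and the build was mm9; the sources used here do not give the settings or the annotation. Counting took no account of strand, per the deposited files' own names. Lines for reads outside genes stayed out of library sizes.

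Symbols and exon lengths came from GENCODE M21 (32860 of 37583 identifiers, 87.4%), and promoter windows from RefSeq on GRCm38.p6. That build is later than the one of the counts, so no position of a count is given. Genes kept by filterByExpr (16240) were fitted with edgeR 4.0.16 in R 4.3.3: TMM, 1 mean per group, all 12 libraries, robust quasi-likelihood, 6 residual and 5.04 prior degrees of freedom, biological coefficient of variation 28.0%. The SE is the absolute log2 fold change over the square root of F. CPM are TMM-scaled. In the 11 comparisons, full statistics were given for 8 fixed members (Ccnb1, Cdk1, Mki67, Top2a, Plk1, Aurkb, Foxm1 and Mybl2) or the called members with the largest changes, and the others were named for their role. Of the other mitosis lists, genes with the smallest adjusted p were named. Members and lists were chosen with earlier results of these data known. Statistics outside that rule were chosen after the values were seen: those of Bub1b, Cdc20, Cenpa, Cenpf, Kif11, Tacc3 and Ttk against MEF in iPSC, of Cenpf and Anln in d6_Eff, of Cks2 in d3_Ineff, of Aurka in iPSC against d6_Eff, of Ccnb2 between the days, and of the Cdk inhibitors. The script was tested on simulated data. Alternatives were other scalings, no filter, DESeq2 1.42.0, limma 3.58.1 (voom), a replicate block, fits on the compared groups alone, each library left out, and 2 libraries left out.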

Additional observations from a re-analysis of the deposited data

Results flagged for a closer look

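Cdkn1c, which encodes the Cdk inhibitor p57, was lower in Eff than in Ineff on both days, and by more on day 6 than on day 3. The difference between the days in its log2 fold change of Eff against Ineff was -1.66 (adjusted p = 0.0194 by edgeR's quasi-likelihood test of the difference itself). It was negative in all 12 fits that left out 1 library and missed the threshold in 6 of them, with adjusted p up to 0.112.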

How the results depend on the processing

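The directions of the member medians were the same under TMM, RLE and upper-quartile factors in the 5 comparisons with MEF. In d6_Eff against d3_Eff the member median turned from -0.03 (TMM) to 0.03 with upper-quartile factors and 0.06 with library totals. Scaling by library totals moved the median of all genes by 0.20 to 0.35 in the comparisons with MEF and by 0.12 in d6_Ineff against d3_Ineff. The share of higher genes among those called then went from 49.98% to 62.9% in d3_Ineff against MEF, from 49.2% to 59.8% in d3_Eff, from 50.7% to 69.4% in d6_Ineff, from 49.0% to 62.3% in d6_Eff and from 72.2% to 84.8% in d6_Ineff against d3_Ineff. Same-numbered replicates did not deviate together (correlations from -0.098 to 0.175), so the numbers were not taken as pairs. With the replicate number as a block, the counts of called members stayed within 1.5 times the values given, and Mki67 in d3_Ineff against MEF changed sign (log2 fold change 0.11). The block ended the calls of Ccna2 and Bub1 in d6_Ineff against MEF and of Aurka in d6_Ineff against d3_Ineff and in iPSC against d6_Eff. Where an arm was left with 1 library, its spread was taken from the other groups. Depth is lowest in MEF replicate 2, where 1 count is 0.140 CPM. The cause of the changes listed next was not tested.

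With RLE factors, the sign turned for Aurkb in d6_Eff against d3_Eff (0.015) on the log2 scale. With upper-quartile factors, the number of members called higher was 9 in iPSC against d6_Eff. Lower calls among members numbered 2 in d6_Ineff against d3_Ineff. The sign turned for Cdk1 in d6_Eff against d3_Eff (0.0056), Aurkb in d6_Eff against d3_Eff (0.060) on the log2 scale. With library totals in place of TMM, the number of members called higher was 27 in d6_Ineff against MEF, 3 in iPSC against d6_Eff. Lower calls among members numbered 2 in d6_Ineff against d3_Ineff. Calls over all tested genes numbered 30 in d3_Eff against d3_Ineff, 134 in the difference between days. The sign turned for Mki67 in d3_Ineff against MEF (0.11), Cdk1 in d6_Eff against d3_Eff (0.035), Aurkb in d6_Eff against d3_Eff (0.085) on the log2 scale. Without the filter on low counts, the number of members called higher was 1 in d3_Eff against d3_Ineff. Lower calls among members numbered 1 in d6_Eff against d3_Eff, 1 in iPSC against d6_Eff. Calls over all tested genes numbered 459 in d3_Eff against d3_Ineff, 1362 in d6_Ineff against d3_Ineff, 832 in the difference between days. With DESeq2, the number of members called higher was 1 in d3_Eff against d3_Ineff, 8 in iPSC against d6_Eff, 2 in the difference between days. Lower calls among members numbered 8 in d6_Ineff against d3_Ineff. Calls over all tested genes numbered 425 in d3_Eff against d3_Ineff, 1568 in d6_Ineff against d3_Ineff, 2245 in d6_Eff against d3_Eff, 807 in the difference between days. The sign turned for Aurkb in d6_Eff against d3_Eff (0.016) on the log2 scale. With limma voom, over all tested genes, the number called was 146 in d3_Eff against d3_Ineff, 1220 in d6_Ineff against d3_Ineff. The sign turned for Mki67 in iPSC against MEF (0.038), Mki67 in d3_Ineff against MEF (0.26), Mki67 in d6_Eff against d3_Eff (-0.021) on the log2 scale. With only the compared groups in the fit, the number of members called higher was 13 in d3_Ineff against MEF, 4 in d6_Ineff against MEF, 18 in d6_Eff against MEF, 2 in d3_Eff against d3_Ineff, 29 in d6_Eff against d6_Ineff, 16 in iPSC against d6_Eff, 2 in the difference between days. Members called lower numbered 18 in d6_Ineff against d3_Ineff, 1 in d6_Eff against d3_Eff, 2 in iPSC against d6_Eff. Calls over all tested genes numbered 2138 in d3_Ineff against MEF, 3247 in d3_Eff against MEF, 2344 in d6_Ineff against MEF, 3968 in d6_Eff against MEF, 700 in d3_Eff against d3_Ineff, 5002 in d6_Eff against d6_Ineff, 2574 in d6_Ineff against d3_Ineff, 2443 in d6_Eff against d3_Eff, 7657 in iPSC against d6_Eff, 1237 in the difference between days. The sign turned for Aurkb in d6_Eff against d3_Eff (0.0090) on the log2 scale. With MEF replicate 2 and d6_Eff replicate 2 both left out (added after the data were seen), the number of members called higher was 3 in d3_Eff against d3_Ineff, 26 in d6_Eff against d6_Ineff, 2 in the difference between days. Members called lower numbered 1 in iPSC against MEF, 1 in d3_Ineff against MEF, 2 in d6_Ineff against MEF, 18 in d6_Ineff against d3_Ineff, 1 in d6_Eff against d3_Eff, 1 in iPSC against d6_Eff. Calls over all tested genes numbered 706 in d3_Eff against d3_Ineff, 2693 in d6_Ineff against d3_Ineff, 949 in the difference between days. The sign turned for Mki67 in d3_Eff against MEF (-0.0082), Mki67 in d6_Ineff against MEF (-0.62), Mki67 in d6_Eff against MEF (-0.48), Mki67 in d6_Eff against d3_Eff (-0.47), Cenpe in d6_Eff against MEF (-0.39), Aurkb in d6_Eff against d3_Eff (0.012), Plk1 in iPSC against d6_Eff (-0.025) on the log2 scale.

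Over the 12 fits that each left out 1 library, counts and log2 fold changes ranged as follows. Members called higher numbered 9 to 24 in d6_Ineff against MEF, 0 to 2 in d3_Eff against d3_Ineff, 1 to 29 in d6_Eff against d6_Ineff, 2 to 13 in iPSC against d6_Eff, 0 to 3 in the difference between days. Members called lower numbered 0 to 18 in d6_Ineff against d3_Ineff, 0 to 2 in d6_Eff against d3_Eff, 0 to 3 in iPSC against d6_Eff, 0 to 1 in iPSC against MEF, 0 to 1 in d3_Ineff against MEF, 0 to 1 in d6_Ineff against MEF. Tested genes called numbered 4 to 644 in d3_Eff against d3_Ineff, 930 to 4715 in d6_Eff against d6_Ineff, 103 to 2607 in d6_Ineff against d3_Ineff, 657 to 2958 in d6_Eff against d3_Eff, 20 to 1349 in the difference between days, 2946 to 6798 in d3_Ineff against MEF, 3112 to 7237 in d6_Ineff against MEF, 2834 to 6815 in iPSC against d6_Eff. Aurkb ranged over -0.10 to 0.065 in d6_Eff against d3_Eff. Ccnb1 ranged over -0.035 to 0.27 in d6_Eff against d3_Eff. Cenpe ranged over -1.10 to 1.45 in d6_Ineff against MEF, -0.10 to 2.47 in d6_Eff against MEF. Foxm1 ranged over -0.12 to 0.39 in d3_Eff against d3_Ineff, -0.37 to 0.14 in the difference between days, -0.055 to 0.10 in d6_Eff against d6_Ineff. Mki67 ranged over -1.14 to 1.99 in iPSC against MEF, -0.92 to 2.22 in d3_Ineff against MEF, -0.11 to 3.07 in d3_Eff against MEF, -0.70 to 2.45 in d6_Ineff against MEF, -0.050 to 3.12 in d6_Eff against MEF, -0.49 to 0.38 in d6_Eff against d3_Eff, -0.71 to 0.16 in the difference between days. Mybl2 ranged over -0.17 to 0.45 in the difference between days, -0.49 to 0.14 in d6_Eff against d3_Eff. Plk1 ranged over -0.030 to 0.22 in iPSC against d6_Eff. Top2a ranged over -0.048 to 0.40 in d6_Eff against d3_Eff.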

Other observations

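Inhibitors of Cdk complexes, which restrain cell-cycle entry, were lower in iPSC than in MEF, but not in every comparison. Of 6 such genes tested, 5 were lower and 0 higher in iPSC against MEF (26.7% and 26.0% of all tested genes). Their median log2 fold change was -3.15. In d6_Eff against d6_Ineff, 4 of 6 were lower and 0 higher (1502 and 873 of all 16240 tested genes). In d3_Ineff against MEF, 1 was lower and 1 higher, near the 15.0% of all tested genes each way, and the median was 0.04. Cdkn1c (p57) held 53.8 and 60.7 CPM in MEF, and on day 3 138 and 147 CPM (d3_Ineff) and 30.5 and 39.3 CPM (d3_Eff). Day 6 levels were 267 and 271 CPM (d6_Ineff) and 23.1 and 18.4 CPM (d6_Eff), and iPSC levels 14.0 and 16.9 CPM. In d6_Eff against d6_Ineff, Cdkn1c was lower by edgeR (log2 fold change -3.69 ± 0.22 (SE), adjusted p = 1.90e-05), as were Cdkn2b (log2 fold change -1.87 ± 0.31 (SE), adjusted p = 0.00243), Cdkn2a (log2 fold change -1.002 ± 0.22 (SE), adjusted p = 0.012) and Cdkn1a (log2 fold change -0.72 ± 0.16 (SE), adjusted p = 0.011). The Cdkn1a call was lost without d6_Ineff replicate 1, d6_Ineff replicate 2 or d6_Eff replicate 2, and the Cdkn2a call without d6_Ineff replicate 1 or d6_Eff replicate 1. Cdkn1c was higher in d6_Ineff than in d3_Ineff (log2 fold change 0.92 ± 0.19 (SE), adjusted p = 0.0248), a call lost without any 1 of those 4 libraries. Cdkn1c, Cdkn1a and Rbl2 share exon bases with an opposite-strand gene.

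The complexes that act on mitosis gene promoters were also listed. Of 12 DREAM and MuvB genes tested, 7 were higher and 1 lower in iPSC against MEF (26.0% and 26.7% of all tested genes). Their median log2 fold change was 0.77. The lower one was Rbl2 (p130), the pocket protein of DREAM in resting cells, which fell in iPSC (log2 fold change -2.33 ± 0.40 (SE), adjusted p = 5.07e-04) and in d6_Eff against MEF (log2 fold change -1.18 ± 0.38 (SE), adjusted p = 0.0264), by edgeR. The d6_Eff call was lost without MEF replicate 1, without d6_Eff replicate 2, with library totals in place of TMM, and with only the compared groups in the fit.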
